A study of Mus musculus with 12 samples.

Results

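The genes described here are the mouse protein-coding genes whose symbol is Zfp, for zinc finger protein, followed by a digit. The GENCODE M21 annotation holds 394 of them. Zfp352, Zfp345, Zfp57 and Zfp42 were set aside by name, and a gene was kept as a member when it had at least 10 counts in at least 6 of the 12 libraries. This left 251 members of the 55266 annotated genes with a transcript in the count tables. Another 139 Zfp genes did not reach the threshold, and 15 of these had no count in any library. The members were thus selected on their counts in these libraries, so that they were detected is not a result. At the edge of the rule, 11 members had exactly 6 such libraries, among them Zfp109, Zfp131 and Zfp263, with mean levels of 1.73, 1.99 and 1.90 CPM (normalised counts scaled to a common library size). On the other side, 10 genes had exactly 5, among them Zfp182, Zfp275 and Zfp316. No member passed through 1 sorted fraction alone, and Zfp9, named after its values were seen, stayed outside with 10 or more counts in 5 tbGFP-positive and 0 tbGFP-negative libraries.

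All cells were E14 mouse embryonic stem cells of the genotype 2C::3xtbGFP, which names a tbGFP reporter of the 2-cell (2C) program. They were kept on gelatin with serum and LIF, and in every group the kinase inhibitors CHIR99021 and PD0325901, used during expansion, were withdrawn at plating. Sorbitol, a sugar alcohol that raises the osmolarity of the medium, was present for 0, 6 or 24 h before collection, and the cells were then sorted into tbGFP-negative and tbGFP-positive fractions. This gave 6 groups of 2 libraries: tbGFP-negative cells at 0, 6 and 24 h of sorbitol and tbGFP-positive cells at 0, 6 and 24 h. The labels do not give the promoter of the reporter, whether the line is 1 clone, or whether the 2 libraries of a group came from separate cultures, so p-values measure the spread between libraries, which may be technical. Sorting followed the exposure, so the tbGFP-positive cells of different times need not descend from each other. No group was kept without sorbitol for 6 or 24 h, so the effects of sorbitol and of other differences between the time points cannot be told apart.

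Most proteins of this family bind DNA through C2H2 zinc fingers, short loops in which a pair of cysteines and a pair of histidines hold a zinc ion. The largest subfamily carries a KRAB domain at the amino terminus, which recruits the corepressor TRIM28 (KAP1) and, through it, the histone methyltransferase SETDB1, so that the DNA bound by the fingers is packed into silent chromatin. Many KRAB zinc finger proteins bind retrotransposons or imprinted loci, and in embryonic stem cells this system keeps endogenous retroviruses silent. KRAB genes lie in clusters of tandem copies, and a smaller set of zinc finger genes outside this subfamily acts in transcription, splicing, mRNA decay or protein modification. By patterns searched in the translated GENCODE coding sequences, 147 members held a KRAB A box and at least 1 C2H2 finger (KRAB members, with a median of 12 finger patterns and at most 33). Another 97 held C2H2 fingers without that KRAB pattern (median 8, at most 36). The CCCH type was held by 2 members, Zfp36l1 and Zfp36l2, and 5 held neither pattern: Zfp330, Zfp750, Zfp781, Zfp839 and Zfp972. Zfp445, an imprinting regulator, counted as a member without the KRAB pattern. Below, members without KRAB are those without this pattern, which does not show that a KRAB domain is absent. Clusters were defined as runs of Zfp genes with starts under 500 kb apart and at least 5 members, and 12 such clusters held 111 members, of which 90 were KRAB members.

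Tandem copies limit how far counts can be assigned to 1 gene. The following stretches of 63 bases, from the GENCODE M21 transcripts, encode 1 zinc finger each of 3 members of the cluster on chromosome 4 and are shown because so few bases separate such copies. Capitals mark the 6 positions at which the 3 sequences are not all the same.
Zfp978: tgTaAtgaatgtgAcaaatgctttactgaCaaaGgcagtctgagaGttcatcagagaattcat
Zfp534: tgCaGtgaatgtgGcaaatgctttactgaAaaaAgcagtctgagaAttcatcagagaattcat
Zfp988: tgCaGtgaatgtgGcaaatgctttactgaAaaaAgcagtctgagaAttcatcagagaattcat
Zfp534 and Zfp988 were identical over this stretch. Across whole transcripts, 77.4% of the 50-base words of Zfp978, 68.4% of those of Zfp534 and 68.1% of those of Zfp988 also occurred in another Zfp gene. Over all members the median was 2.39%. Words were shared at 20% or more in 50 members, whose values are uncertain, and at under 1% in 97. How the deposited counting treated reads that fit several transcripts or genes is not stated, so levels are compared between libraries and not between genes. The strand setting of the counting is not stated either, and reads from overlapping or antisense genes may be mixed.

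The libraries held 2306870 to 7900178 counts, and a level of 3 counts corresponded to 0.380 to 1.30 CPM. Of the 251 members, 170 had at least 10 counts in every library. Members at a count of 0 were most frequent in the tbGFP-positive libraries at 6 h, with 18 and 23, against 9 in tbGFP-positive replicate 2 at 0 h and 0 to 3 elsewhere. Counts were found for 17545 and 17445 of all genes in these 6 h libraries, the fewest of the series. The number was 18674 in tbGFP-negative replicate 1 and 18600 in tbGFP-positive replicate 2 at 0 h, and 23379 to 26069 elsewhere. Retained-intron transcripts made up 1.84% to 3.56% of the members' counts, highest in the tbGFP-negative libraries at 24 h. The 6 embryonic stem cell markers, Pou5f1, Sox2, Nanog, Esrrb, Tfcp2l1 and Klf4, summed to 2340 to 3717 CPM in all libraries. Of these, Nanog stood at 7.52 to 44.6 CPM and Esrrb at 5.86 to 19.4 CPM. Klf4, Sox2, Pou5f1 and Tfcp2l1 stood at 187 CPM or more. The 2-cell list summed to 25102 to 39757 CPM in tbGFP-positive libraries, against 11.6 to 25.9 in tbGFP-negative cells at 0 h, 37.8 to 52.3 at 6 h and 563 to 625 at 24 h. Lists for primitive endoderm, trophectoderm, and mesoderm and ectoderm stayed at or below 15.99 CPM, and the fibroblast list reached 27.2 CPM, in a tbGFP-positive library at 6 h. All CPM values of genes are normalised by TMM factors, which estimate library scaling from the bulk of genes and ranged from 0.859 to 1.24.

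Together the members took a smaller part of the RNA at 6 h than at 0 h, and more again at 24 h; the difference in shares was not tested. In tbGFP-negative cells they held 1.59% and 1.72% of all counts before sorbitol, 1.14% and 1.01% after 6 h, then 1.89% and 1.74% after 24 h. In tbGFP-positive cells the shares were 1.15% and 1.26%, then 0.951% and 0.912%, then 1.27% and 1.54%. In both fractions the 6 h libraries lay below the libraries of the other times, with no overlap, and at each time the tbGFP-positive shares lay below the tbGFP-negative ones. In sorted bulk RNA, fewer cells with a transcript and less of it per cell cannot be told apart.

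**Figure D1:**
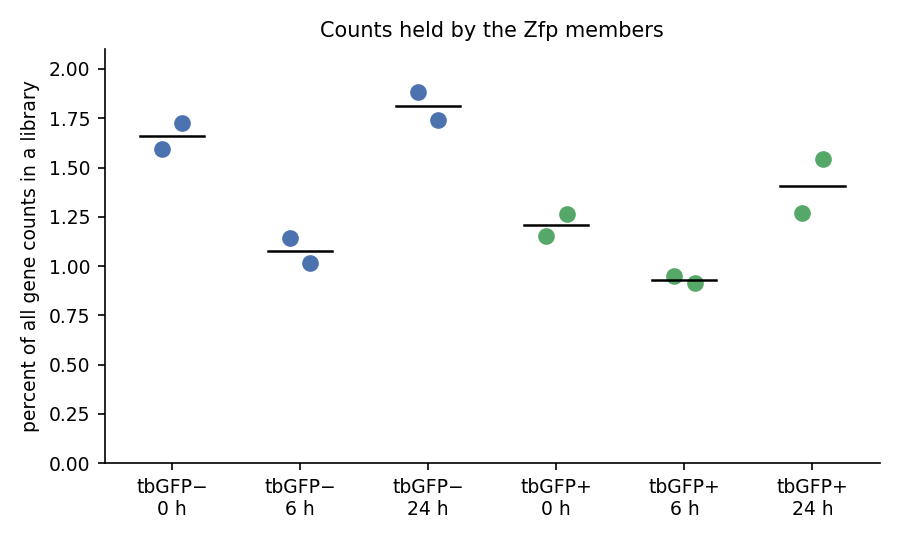
Percent of all raw gene counts held by the 251 members (vertical axis, from 0) in each of the 12 libraries, without TMM factors. Points are libraries and black lines are means of 2. Both 6 h libraries of each fraction lie below its 0 h and 24 h libraries.

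In tbGFP-negative cells, 31 members fell and 6 rose between 0 and 6 h of sorbitol. Over all 19384 genes tested, 4.44% passed the same test (edgeR quasi-likelihood, Benjamini-Hochberg adjusted p under 0.05), 3.22% upward and 1.21% downward, whereas 14.7% of the members passed, 12.4% downward. The median fitted log2 change was −0.53 over the members and 0.05 over all genes. Members had to reach 10 counts in 6 libraries and all genes tested in only 2, here and in each later comparison. The shares thus come from unlike count filters, and a share of all genes under the members' filter was not computed. Of the 53 Zfp genes tested that were not members, 0 passed, with a median of −0.57. The median was −0.51 for KRAB members and −0.59 for C2H2 members without KRAB, and in both classes most members that passed had fallen, 20 of 24 and 11 of 13. Under the other settings the members' median ranged from −0.87 to −0.48 and lay 0.54 to 0.75 below that of all genes. The number passing was less stable: 11 without tbGFP-negative 0 h replicate 1, 1 without replicate 2, and 10 and 6 without replicate 1 or 2 of the 6 h group. It was 79 without either tbGFP-positive 6 h library and 83 without both. Scaling by library totals alone gave 2 higher and 64 lower, 26.3% of the members beside 4.69% of all genes (1.75% higher and 2.95% lower).

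The largest decreases in tbGFP-negative cells at 6 h were in Zfp101, Zfp113, Zfp786 and Zfp11. Zfp113, a KRAB member, had 13.1 and 18.3 CPM at 0 h and 3.19 and 3.12 CPM at 6 h, a log2 change of −2.32 ± 0.46 (SE, adjusted p = 0.00892). Both 6 h values lay below both 0 h values. Zfp101 went from 22.4 and 29.1 CPM to 5.37 and 3.74 CPM (log2 change −2.49 ± 0.50, adjusted p = 0.0090), and Zfp11 from 18.7 and 18.4 to 4.53 and 3.95 CPM (−2.12 ± 0.52, adjusted p = 0.029). The calls of Zfp101 and Zfp113 were lost without tbGFP-negative 0 h replicate 2 and without either 6 h replicate. Those of Zfp786 and Zfp11 were lost without any 1 of the 4 libraries compared, and that of Zfp11 also without either tbGFP-negative 24 h library. Among members with known roles, Zfp462, which takes part in heterochromatin formation in stem cells, fell from 164 and 176 CPM to 90.1 and 100 CPM (log2 change −0.84 ± 0.19, adjusted p = 0.0171). Zfp609, a chromatin cofactor of transcription, fell from 158 and 160 CPM to 64.7 and 87.3 CPM (−1.07 ± 0.22, adjusted p = 0.0113). Neither stood without tbGFP-negative 0 h replicate 1 or 2 or 6 h replicate 1, and that of Zfp462 was also lost without 6 h replicate 2.

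In tbGFP-positive cells, 31 members fell and 4 rose between 0 and 6 h. Over all genes 5.9% passed, 2.14% upward and 3.76% downward, and of the members 13.9% passed, 12.4% downward. The members' median log2 change was −0.59, against −0.05 for all genes, and under the other settings it ranged from −0.74 to −0.49, lying 0.21 to 0.74 below that of all genes. KRAB members had a median of −0.70 with 25 of 147 falling, and C2H2 members without KRAB had −0.36 with 6 of 97 falling. The difference between the classes was not tested. The number passing was 15 without tbGFP-positive 0 h replicate 2, 98 and 82 without replicate 1 or 2 at 6 h, and 23 without tbGFP-negative 24 h replicate 1. It was 3 when only the 4 libraries compared were used.

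The largest fitted decreases in tbGFP-positive cells were of members near a count of 0. Over all genes the 5th percentile of this log2 change was −5.88, so large fitted decreases were not particular to the members. Zfp90, a KRAB member, had 0.766 and 2.97 CPM at 0 h and no count in either library at 6 h, which makes it at least 5.96-fold lower with a floor of 3 counts over the 6 h group. Of the words of Zfp90, 77.1% were shared with other Zfp genes, and under the alternatives its log2 change ranged from −7.18 to 0. Zfp598, an E3 ubiquitin ligase that acts on collided ribosomes, had 6.51 and 1.48 CPM at 0 h and 0.302 and 0 CPM at 6 h. With 40 counts against 1 the ratio was 44.7 (exact 95% interval for counting error 7.58 to 1810), and it lost its call when only transcripts annotated as protein coding were summed. Zfp994 had 16.3 and 14.8 CPM at 0 h and 3.62 and 0 CPM at 6 h, a log2 change of −3.44 ± 0.84 (adjusted p = 0.0283). Zfp532 had 7.85 and 7.17 CPM and then 1.81 and 0 CPM (−3.38 ± 0.92, adjusted p = 0.0429). In both genes the 6 h values lay below the 0 h values. These calls depended on single libraries. That of Zfp532 was lost without any 1 library other than those of tbGFP-positive cells at 6 h, and that of Zfp994 without any 1 of the 0 h or 24 h libraries. That of Zfp90 was lost without any 1 library other than replicate 1 of tbGFP-positive cells at 0 h or 6 h, and that of Zfp598 without tbGFP-positive 0 h replicate 1 or either tbGFP-positive 24 h library.

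The decreases of the 2 fractions come from separate libraries. Of the 31 members that fell in each, 14 fell in both, which is 45.2% of each list: Zfp26, Zfp59, Zfp160, Zfp266, Zfp369, Zfp397, Zfp626, Zfp763, Zfp866, Zfp936, Zfp937, Zfp941, Zfp975 and Zfp977. Of these, 12 are KRAB members. How many of all genes fell in both fractions was not counted. Zfp626 went from 115 and 133 CPM at 0 h to 48.1 and 41.8 CPM by 6 h in tbGFP-negative cells, and 78.1 and 129 CPM followed by 45.0 and 30.6 CPM in tbGFP-positive cells. Its log2 changes were −1.46 and −1.47. Zfp160 changed by −1.24 in both fractions, from 51.9 and 58.0 to 24.0 and 22.7 CPM and from 41.7 and 53.1 to 21.4 and 18.7 CPM. In each gene and fraction the 0 h and 6 h values did not overlap. In tbGFP-negative cells the call of Zfp626 was lost without replicate 2 of either time and that of Zfp160 without any 1 of the 4 libraries, and in tbGFP-positive cells that of Zfp160 was lost without 0 h replicate 2. Across the 251 members, 163 had a fitted change below 0 in both fractions. Below 0 were 190 in tbGFP-negative and 196 in tbGFP-positive cells, so a large overlap follows from these totals alone. The changes of the 2 fractions had a Pearson r of 0.36 and a Spearman rho of 0.40. Over all genes r was 0.33. The points are genes measured in the same 8 libraries and not independent replicates. No member passed the test of a difference between the fractions' changes (edgeR interaction at 6 h), where 0.17% of all genes did. An unadjusted edgeR p under 0.05 was found for 30 of the 251 members, beside 2586 of the 19384 genes tested. DESeq2 called 3 members, 1.195% beside 1.424% of all genes. The number passing depended on single libraries. Without tbGFP-positive 6 h replicate 1 the members' median of this difference was −0.20, against −0.40 for all genes. Without replicate 2 it was −0.05, against −0.55.

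**Figure D2:**
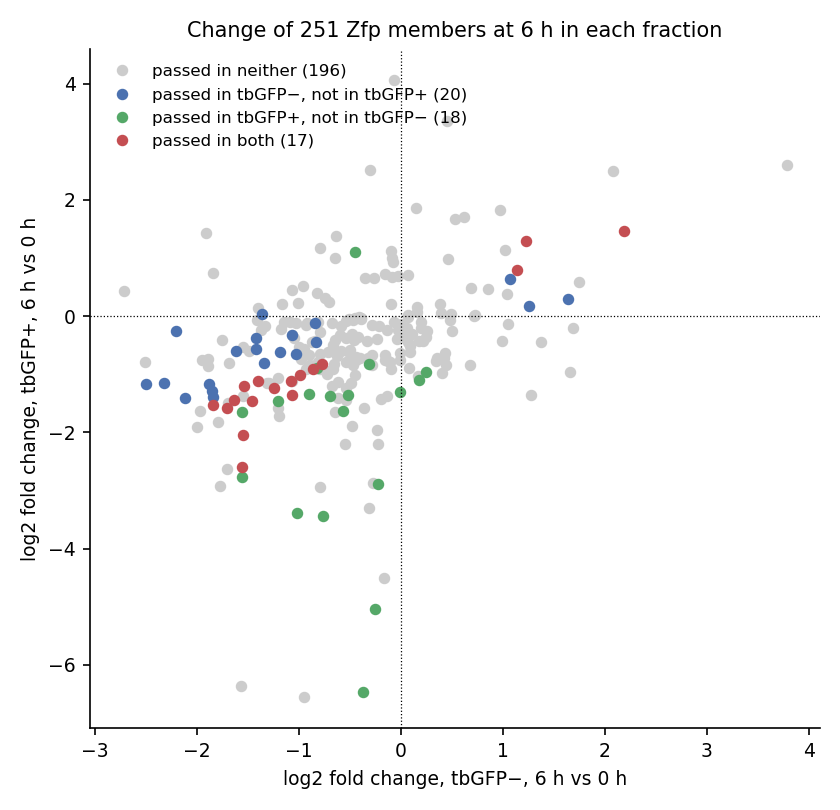
Fitted log2 fold change from 0 to 6 h of each of the 251 members in tbGFP-negative (horizontal axis) and tbGFP-positive cells (vertical axis), coloured by where it passed the test. Most points lie below 0 on both axes, and the 17 members that passed in both comprise the 14 that fell and the 3 that rose in both fractions.

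A few members rose at 6 h, and 3 did so in both fractions: Zfp568, Zfp207 and Zfp959. Zfp568 (chr7:29983955-30028282, plus strand, mm10), a KRAB protein known to repress a promoter of Igf2, had a mean level of 588 CPM over the 12 libraries. In tbGFP-negative cells it went from 483 and 486 CPM to 1087 and 1053 CPM at 6 h and stood at 676 and 618 CPM at 24 h. In tbGFP-positive cells it went from 316 and 289 CPM to 406 and 637 CPM and then 523 and 481 CPM. The 6 h values were above the 0 h values in both fractions, with log2 changes of 1.14 ± 0.18 (adjusted p = 0.00226) and 0.79 ± 0.18 (adjusted p = 0.0230). The former call was lost without tbGFP-negative 0 h replicate 2 or 6 h replicate 1. The latter was lost without tbGFP-positive 0 h replicate 1 or 2 or 6 h replicate 2, and without either tbGFP-negative 6 h library. From 6 to 24 h Zfp568 fell in tbGFP-negative cells (log2 change −0.73 ± 0.18, adjusted p = 0.0215), a call lost without any 1 of the 4 libraries.

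Zfp207 (chr11:80383279-80405733, plus strand, mm10), also called BuGZ, loads the checkpoint protein BUB3 onto kinetochores. It went from 24.3 and 20.3 CPM at 0 h to 47.6 and 56.6 CPM by 6 h in tbGFP-negative cells, and 20.5 and 21.0 CPM followed by 53.1 and 48.5 CPM in tbGFP-positive cells. The groups did not overlap in either fraction, and the log2 changes were 1.23 ± 0.27 (adjusted p = 0.0173) and 1.29 ± 0.28 (adjusted p = 0.0159). Both calls were lost when only protein-coding transcripts were summed, the former also without any 1 of its 4 libraries and the latter without either 0 h replicate. Zfp959 rose from 7.84 and 11.2 CPM to 51.3 and 38.1 CPM in tbGFP-negative cells (log2 change 2.19 ± 0.41, adjusted p = 0.00613) and from 18.8 and 7.91 CPM to 35.0 and 39.0 CPM in tbGFP-positive cells (1.46 ± 0.40, adjusted p = 0.0448). Its values did not overlap between the times. The first call was lost without tbGFP-negative 0 h replicate 1 or 2 or 6 h replicate 1, and the second in 12 alternatives, among them those without tbGFP-positive 0 h replicate 2, without either 24 h library of tbGFP-positive cells and without any 1 tbGFP-negative library. In tbGFP-negative cells Zfp28, Zfp954 and Zfp64 also rose. Zfp28 went from 13.1 and 13.2 CPM to 37.4 and 44.5 CPM (log2 change 1.64 ± 0.40, adjusted p = 0.0278) and Zfp954 from 37.3 and 38.1 to 87.9 and 93.2 CPM (1.26 ± 0.27, adjusted p = 0.0150). Zfp64 had a log2 change of 1.07 ± 0.25 (adjusted p = 0.0254). None of these 3 calls held when any 1 of the 4 libraries was left out or when library totals were used for scaling, and that of Zfp28 was also lost without any 1 of the 24 h libraries.

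Between 6 and 24 h the direction was the opposite. In tbGFP-negative cells 54 members rose and 4 fell, 23.1% of the members in all and 21.5% upward, where 7.91% of all genes passed, 3.62% upward and 4.3% downward. In tbGFP-positive cells 60 rose and 4 fell, 25.5% in all and 23.9% upward, where 8.82% of all genes passed, 5.91% upward and 2.9% downward. The members' median log2 changes were 0.79 and 0.71, against 0.16 and 0.13 for all genes. They lay 0.54 to 0.77 and 0.36 to 0.77 above the median of all genes under the other settings. These comparisons share their 6 h libraries with the preceding ones, so the fall and the rise of a member are not independent. The count filters of the members and of all genes again differed. For tbGFP-negative cells the number passing was 21 and 13 without 6 h replicate 1 or 2, 14 and 23 without 24 h replicate 1 or 2, 112 without either tbGFP-positive 6 h library and 108 without both. For tbGFP-positive cells it was 108 and 98 without 6 h replicate 1 or 2, 18 and 13 without 24 h replicate 1 or 2, 39 and 40 without tbGFP-negative 0 h replicate 1 or 2, 37 without either tbGFP-negative 24 h library, and 0 when only the 4 libraries compared were used.

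Of the members that rose from 6 to 24 h, 32 rose in both fractions, 59.3% of the tbGFP-negative and 53.3% of the tbGFP-positive list. The same overlap over all genes was not counted. Over the 251 members the changes of the 2 fractions had a Pearson r of 0.44, and over all genes of 0.33, across genes of the same 8 libraries. Among the largest increases in tbGFP-negative cells were Zfp689, Zfp607b, Zfp113 and Zfp746. Zfp607b, a KRAB member, went from 11.9 and 6.65 CPM at 6 h to 70.8 and 70.2 CPM at 24 h (log2 change 2.91 ± 0.41, adjusted p = 0.000444), and Zfp113 from 3.19 and 3.12 CPM to 23.4 and 22.7 CPM (2.86 ± 0.46, adjusted p = 0.00112). Both passed in each of the 20 alternatives. Zfp689 went from 1.68 and 0.832 CPM to 12.3 and 10.4 CPM (3.14 ± 0.74, adjusted p = 0.0154), and Zfp746 from 5.20 and 4.78 CPM to 24.2 and 32.4 CPM (2.50 ± 0.63, adjusted p = 0.0228). Both of the latter calls were lost without any 1 of the 4 libraries, and with protein-coding transcripts alone Zfp746 had a log2 change of 0. In tbGFP-positive cells the largest increases were again of members near 0 at 6 h. The 95th percentile of this log2 change over all genes was 6.18. Zfp426 went from no count to 5.68 and 1.62 CPM, at least 11.95-fold higher, and Zfp90 from no count to 1.77 and 1.62 CPM, at least 5.84-fold higher. Zfp598 rose to 9.76 and 7.80 CPM, with 108 counts against 1 (ratio 90.1, exact 95% interval 15.8 to 3590). Zfp994 rose to 24.0 and 40.9 CPM (log2 change 4.504 ± 0.84, adjusted p = 0.00623). The calls of Zfp426 and Zfp90 were lost without either tbGFP-positive 24 h library, 6 h replicate 2, tbGFP-negative 0 h replicate 1 or any 1 tbGFP-negative library of 6 or 24 h, and that of Zfp90 also without tbGFP-negative 0 h replicate 2. That of Zfp598 was lost without tbGFP-positive 24 h replicate 1 and that of Zfp994 without replicate 2.

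The members that fell from 6 to 24 h were few. In tbGFP-negative cells they were Zfp948, Zfp566, Zfp568 and Zfp146. Zfp948 went from 51.8 and 44.7 CPM to 20.8 and 24.0 CPM, a log2 change of −1.11 ± 0.27 (adjusted p = 0.0195), a call lost without any 1 of the 4 libraries, as were those of Zfp566 and Zfp146, which were also lost without either tbGFP-negative 0 h or either tbGFP-positive 24 h library. In tbGFP-positive cells they were Zfp13, Zfp296, Zfp36l1 and Zfp871. Zfp36l1, which binds AU-rich elements and promotes decay of mRNAs, went from 57.6 and 61.8 CPM to 20.9 and 32.2 CPM (−1.17 ± 0.27, adjusted p = 0.0193), a call lost without tbGFP-positive 24 h replicate 1. Of its words, 54.4% were shared with other Zfp genes. Zfp13 had 5.13 and 6.81 CPM at 6 h and 0.355 and 0.294 CPM at 24 h. Its call was lost without either tbGFP-positive 24 h library or any 1 tbGFP-negative library, and that of Zfp871 also without tbGFP-positive 6 h replicate 1. In Zfp948, Zfp36l1 and Zfp13 the 6 h and 24 h values did not overlap.

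Compared with 0 h, few members differed at 24 h. In tbGFP-negative cells 4 were higher and 6 lower, 3.98% of the members beside 3.99% of all genes, 2.7% upward and 1.29% downward. In tbGFP-positive cells 1 was higher and 0 lower, 0.398% beside 0.552% of all genes (0.304% higher and 0.248% lower). The DESeq2 test called 5 members in tbGFP-positive cells, 1.99% beside 2.56% of all genes. An unadjusted edgeR p under 0.05 was found for 25 of the 251 members, beside 1875 of the 19384 genes tested. The 31 members that had fallen at 6 h in tbGFP-negative cells had a median log2 difference of −0.06 between 24 and 0 h, with a range of −0.98 to 0.67, and 1 of them, Zfp609, was still called lower (74.9 and 86.4 CPM at 24 h, log2 change −0.98 ± 0.22, adjusted p = 0.0178), a call lost without any 1 of the 4 libraries. The 31 of the tbGFP-positive fraction had a median of 0.07, with a range of −0.51 to 1.11, and 0 were called lower. Since these members were chosen for low 6 h or high 0 h values, their medians are a description.

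The 4 members higher at 24 than at 0 h in tbGFP-negative cells were Zfp560, Zfp607b, Zfp334 and Zfp51. The call of Zfp334 was lost in 8 alternatives. Zfp560 went from 8.96 and 6.82 CPM to 22.4 and 24.99 CPM (log2 change 1.64 ± 0.21, adjusted p = 0.000205), and this call passed in each of the 20 alternatives. Zfp51 went from 46.7 and 52.5 CPM to 111 and 82.3 CPM (0.96 ± 0.25, adjusted p = 0.0445), a call lost in 10 alternatives, among them each fit without any 1 of the 0 h or 24 h libraries. The 2-cell list stood at 11.6 to 25.9 CPM in these 0 h libraries and at 563 to 625 CPM in the 24 h ones, and its part in the rises of Zfp560 and Zfp51 was not tested. Zfp607b went from 22.0 and 27.0 CPM to 70.8 and 70.2 CPM (1.51 ± 0.39, adjusted p = 0.0380), and in tbGFP-positive cells from 11.5 and 5.68 CPM to 36.6 and 49.0 CPM (2.30 ± 0.41, adjusted p = 0.0202). Both calls of Zfp607b were lost without any 1 of the libraries compared or of the 24 h libraries of the other fraction, the former also without either tbGFP-negative 6 h library and the latter without either tbGFP-negative 0 h library. The lower members included Zfp652, from 200 and 212 to 60.1 and 81.6 CPM (−1.54 ± 0.34, adjusted p = 0.0168), Zfp106, an RNA-binding protein, from 501 and 549 to 331 and 345 CPM (−0.63 ± 0.15, adjusted p = 0.0253), and Zfp991 and Zfp992 of the chromosome 4 cluster, with log2 changes of −1.30 and −1.24. The calls of Zfp652 and Zfp106 were lost without any 1 of the 4 libraries, and those of Zfp991 and Zfp992 without replicate 2 of either time, that of Zfp991 also without 0 h replicate 1. Of the words of Zfp991 and Zfp992, 82.2% and 43.0% were shared with other Zfp genes. The number passing in tbGFP-negative cells was 2 and 1 without 0 h replicate 1 or 2, 3 and 1 without 24 h replicate 1 or 2, and 24 and 25 without tbGFP-positive 6 h replicate 1 or 2. With upper-quartile scaling it was 1 higher and 8 lower, 3.59% beside 4.23% of all genes. In tbGFP-positive cells it was 0 without any 1 of the 4 libraries compared, without any 1 tbGFP-negative library of 0 or 24 h, and 7 and 8 without tbGFP-positive 6 h replicate 1 or 2.

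**Figure D3:**
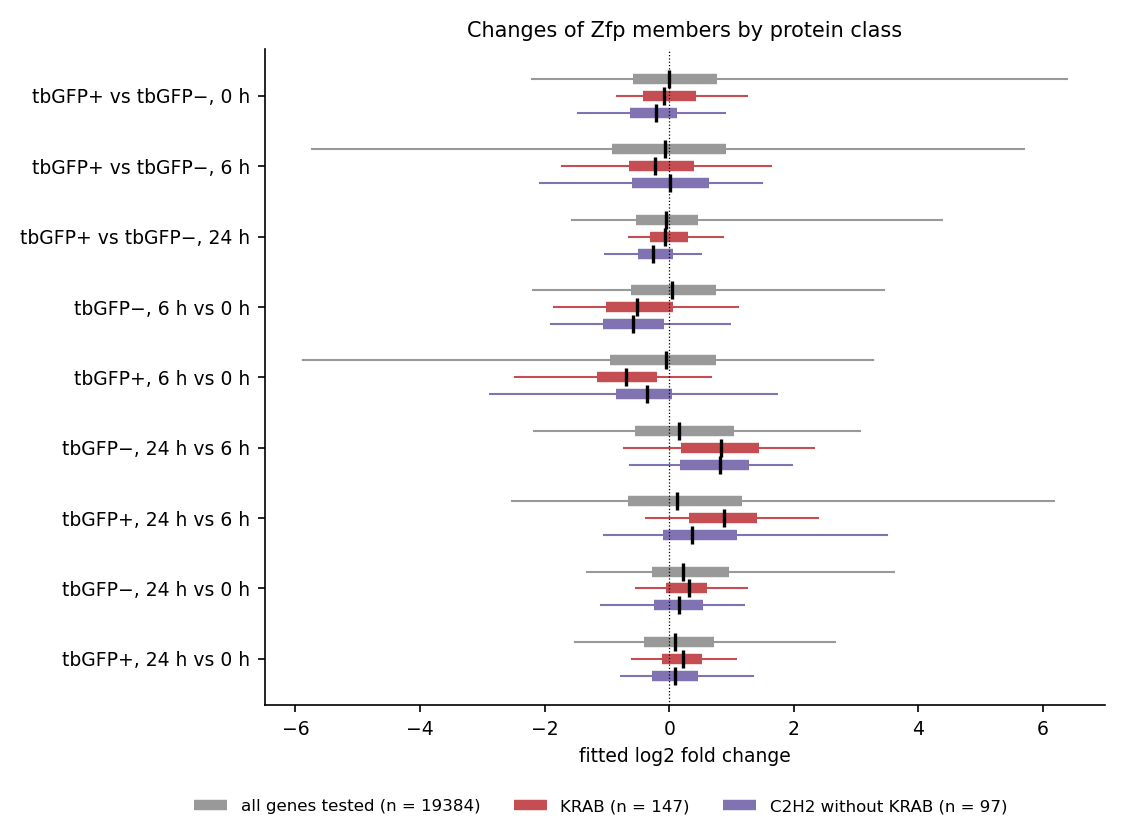
Fitted log2 fold changes in the 9 comparisons for all 19384 genes tested (grey), the 147 KRAB members (red) and the 97 C2H2 members without KRAB (purple); black ticks are medians, thick bars the 25th to 75th and thin lines the 5th to 95th percentile. Both classes lie left of all genes from 0 to 6 h and right of them from 6 to 24 h, and near them in the other comparisons.

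A pair of clusters on chromosome 7 is described by its values. The members were chosen after these were seen, and a difference between the clusters was not tested. All 6 members of the cluster at chr7:42473386-43618285 (mm10), which are KRAB members, had 6 h changes below 0 in both fractions. Zfp936, Zfp975 and Zfp977 fell in both. All 6 rose from 6 to 24 h in both fractions, with medians of 1.07 and 1.24. Zfp936 had 357 and 430 CPM at 0 h, 203 and 171 CPM at 6 h, then 410 and 368 CPM at 24 h in tbGFP-negative cells, and 258 and 307, 138 and 123, and 280 and 338 CPM in tbGFP-positive cells. Zfp977 had 201 and 187, 110 and 74.4, and 229 and 200 CPM, and then 177 and 172, 81.5 and 56.0, and 183 and 224 CPM. In both genes and fractions the 6 h values lay below all others. The 6 h calls in tbGFP-negative cells were lost without 0 h replicate 2 for Zfp936, without either 0 h replicate or 6 h replicate 2 for Zfp977, and without any 1 of the 0 h, 6 h or 24 h libraries of that fraction or either tbGFP-positive 24 h library for Zfp975. In tbGFP-positive cells those of Zfp936 and Zfp977 held without each library in turn, and that of Zfp975 was lost without any 1 of the 0 h libraries of either fraction or tbGFP-negative 24 h replicate 1. Zfp719 and Zfp141 went the same way without passing at 6 h: their changes were −1.001 and −0.54 in tbGFP-negative and −0.53 and −0.37 in tbGFP-positive cells. These members shared 0.277% (Zfp719) to 30.4% (Zfp975) of their words with other Zfp genes.

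The cluster at chr7:29768552-30169750, held Zfp568, Zfp566, Zfp84, Zfp74, Zfp146, Zfp382, Zfp940 and Zfp420, with a median 6 h change of 0.22 in tbGFP-negative and 0.06 in tbGFP-positive cells. None of its 8 members fell at 6 h in either fraction. From 6 to 24 h none rose, and Zfp568, Zfp566 and Zfp146 fell in tbGFP-negative cells. Zfp566 had 42.6 and 43.3 CPM at 0 h, 81.2 and 74.0 CPM at 6 h, then 47.0 and 40.5 CPM at 24 h in tbGFP-negative cells. Zfp84 had 71.3 and 91.4, 163 and 162, and 107 and 98.5 CPM, with a 6 h log2 change of 0.99 (adjusted p = 0.0580, and past the threshold in 7 alternatives, DESeq2 among them). In tbGFP-positive cells its 6 h libraries stood at 43.8 and 95.2 CPM. The median share of words with other Zfp genes was 0.334% in this cluster. In the remaining clusters, the median 6 h change was below 0 in both fractions, from −1.56 to −0.35 in tbGFP-negative and from −1.21 to −0.48 in tbGFP-positive cells. The 18 members of the chromosome 4 cluster (chr4:145510759-147848366), all KRAB members with a median word share of 68.0%, had medians of −0.43 and −0.59. There, 0 fell in tbGFP-negative and 1, Zfp978, in tbGFP-positive cells.

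**Figure D4:**
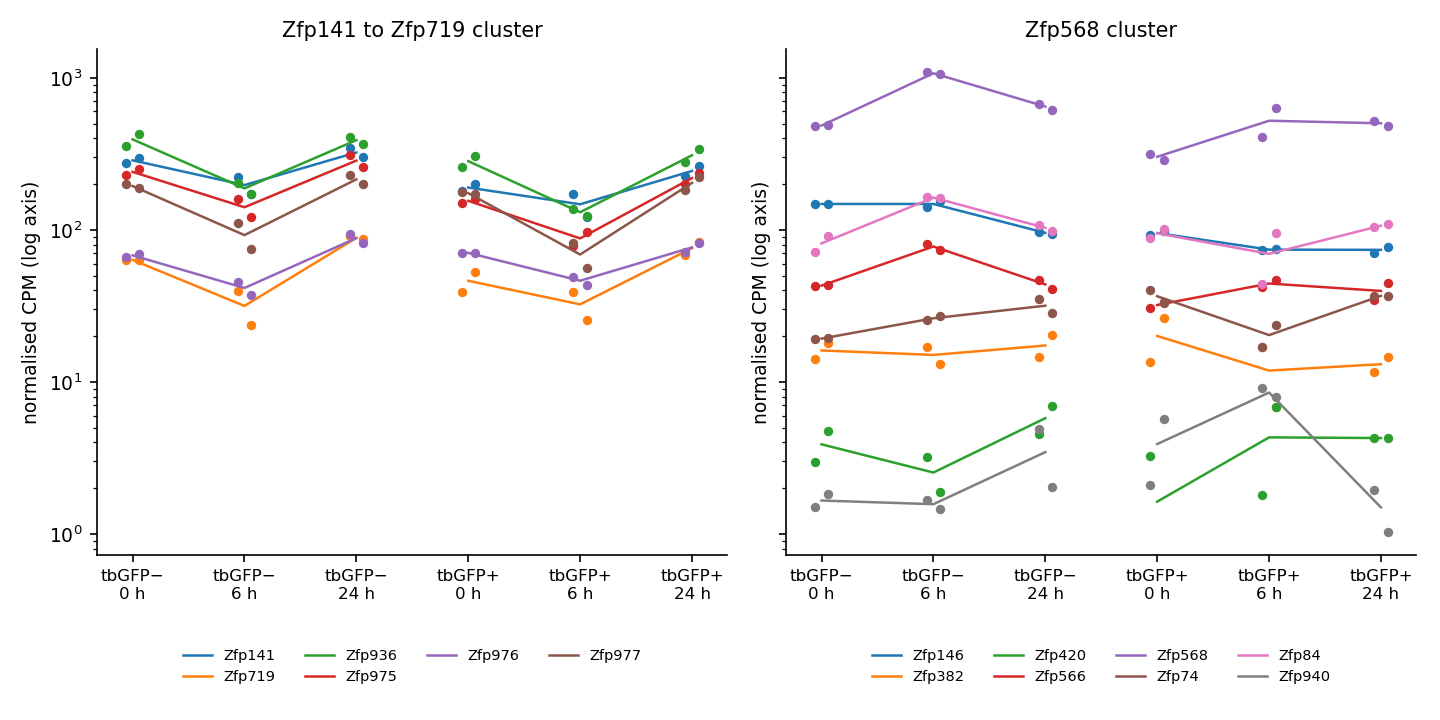
Normalised CPM on a log axis of the 6 members of one chromosome 7 cluster (left) and the 8 members of another (right) by fraction and time; points are libraries and lines join means of 2 libraries. The 6 on the left dip at 6 h in both fractions; on the right Zfp568, Zfp566 and Zfp84 peak at 6 h in tbGFP-negative cells, and the library in which Zfp420 had no count (tbGFP-positive, 0 h) falls off the axis.

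The sequences below are the 250 bases before the RefSeq start (GRCm38.p6) of 2 members of the first cluster, Zfp976 (chr7:42642605-42642854, minus strand) and Zfp977 (chr7:42592546-42592795, minus strand). They are printed as examples, and all 6 members of the cluster rose from 6 to 24 h in both fractions. Capitals mark CCAAT on either strand, the CCAAT box.
Zfp976: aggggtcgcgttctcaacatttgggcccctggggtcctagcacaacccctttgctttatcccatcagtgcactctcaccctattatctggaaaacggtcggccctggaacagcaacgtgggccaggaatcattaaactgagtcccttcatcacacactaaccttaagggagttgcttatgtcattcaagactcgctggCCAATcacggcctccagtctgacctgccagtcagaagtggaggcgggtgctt
Zfp977: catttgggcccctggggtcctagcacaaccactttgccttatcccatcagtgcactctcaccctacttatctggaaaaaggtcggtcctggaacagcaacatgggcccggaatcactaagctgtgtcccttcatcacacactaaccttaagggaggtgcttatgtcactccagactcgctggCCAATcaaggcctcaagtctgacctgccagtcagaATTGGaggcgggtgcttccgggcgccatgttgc
In a global alignment 218 bases were identical, 81.6% of its length. Zfp975, also of this cluster, had 62.9% identity with Zfp977, and Zfp141 and Zfp719 had 43.8% and 47.2%. Zfp936 had 88.2% identity with Zfp977 and 83.6% with Zfp976, but the RefSeq start used for it lay 63361 bases from its GENCODE start.

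Over the RefSeq promoters of the members (238 sequences of 204 members), CCAAT on either strand occurred in 52.5%, against 33.8% of all 32851 promoters of that length. The share was 62.9% for KRAB members and 36.6% for C2H2 members without KRAB. The GC box GGGCGG went the other way, at 30.0% of KRAB and 59.1% of other C2H2 members, against 32.7% of all promoters. The TATA box TATAAA was found in 6.30% of the members' promoters and 12.4% of all, the cAMP response element TGACGTCA in 5.46% and 1.55%, the E-box CACGTG in 6.72% and 6.02%, and the core of the ZFP143 site in 0.420% and 0.262%. CCAAT stood in 59.5% of the 37 promoters found for members that fell at 6 h in either fraction, beside the 52.5% of all members. These are matches of letters, and binding was not measured.

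Between the sorted fractions, the 2 largest called differences at 0 and 24 h were those of Zfp560 and Zfp51, both higher in tbGFP-positive cells. At 0 h, tbGFP-positive cells had 5 members higher and 5 lower, 3.98% beside 7.11% of all genes, of which 6.66% were higher and 0.449% lower. At 6 h 11 were higher and 17 lower, 11.2% beside 12.1% (6.92% and 5.22%), and at 24 h 5 were higher and 1 lower, 2.39% beside 5.46% (5.35% and 0.113%). The members' medians were −0.11, −0.16 and −0.13, and those of all genes 0.00, −0.07 and −0.05. The balance of directions depended on scaling. With upper-quartile factors the counts were 2 higher and 19 lower at 0 h, 7 and 40 at 6 h, then 4 and 4 at 24 h, and with library totals 2 and 24 at 0 h, then 2 and 16 at 24 h. The upper-quartile counts were 8.37%, 18.7% and 3.19% of the members, beside 8.77%, 18.8% and 5.26% of all genes. Of these, the lower ones were 7.57%, 15.9% and 1.59% of the members and 3.20%, 12.7% and 0.480% of all genes. Those scalings moved the median of all genes to −0.35, −0.40 and −0.25, and to −0.41 and −0.48. The members' median then lay below that of all genes by 0.14, 0.09 and 0.08, and by 0.14 and 0.08. Library totals also turned the order of the shares passing, to 10.4% of the members beside 9.75% of all genes at 0 h and 7.17% beside 6.75% at 24 h. Without 1 library the members' median lay above that of all genes in 2 cases, by 0.02 at 0 h without tbGFP-positive 0 h replicate 1 and by 0.19 at 6 h without tbGFP-positive 6 h replicate 2.

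The numbers passing also depended on single libraries. At 0 h they were 3 and 2 without tbGFP-negative 0 h replicate 1 or 2, 3 without either tbGFP-negative 24 h library, 4 without either tbGFP-positive 24 h library, 5 without either tbGFP-negative 6 h library, and 29 without either tbGFP-positive 6 h library. For the 6 h comparison they were 8 and 15 without tbGFP-negative 6 h replicate 1 or 2, 66 and 71 without tbGFP-positive replicate 1 or 2, and 18 without either tbGFP-negative 24 h library. At 24 h they were 2 and 3 without tbGFP-negative replicate 1 or 2, 3 without either tbGFP-positive replicate, and 13 without either tbGFP-positive 6 h library. The calls of Zfp560, Zfp51 and, at 6 h, Zfp296 passed under each alternative run for them.

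Zfp560 (chr9:20345136-20385177, minus strand, mm10) is a KRAB member with 15 finger patterns that lies in the cluster of chromosome 9 with Zfp26, Zfp266, Zfp426 and Zfp846. It had 8.96 and 6.82 CPM in tbGFP-negative cells and 504 and 646.4 CPM in tbGFP-positive cells at 0 h, a log2 difference of 6.24 ± 0.23 (adjusted p = 3.01e-11). At 6 h the values were 9.39 and 8.73 against 301 and 288 CPM (5.02 ± 0.22, adjusted p = 1.79e-10), and at 24 h 22.4 and 24.99 against 749 and 666 CPM (4.90 ± 0.21, adjusted p = 3.62e-10). Every tbGFP-positive library was above every tbGFP-negative one. Within tbGFP-positive cells Zfp560 fell from 0 to 6 h (−0.97 ± 0.17, adjusted p = 0.00680) and rose from 6 to 24 h (1.27 ± 0.17, adjusted p = 0.00119). The gap between the fractions was smaller at 24 than at 0 h: it was the 1 member that passed this interaction, −1.34 ± 0.27 (adjusted p = 0.0229), where 0.97% of all genes passed, 0.0206% upward and 0.949% downward. That call was lost in 9 alternatives, among them upper-quartile scaling and each fit without tbGFP-negative 0 h replicate 2, tbGFP-positive 0 h replicate 2, or any 1 of the tbGFP-negative 6 h, tbGFP-negative 24 h or tbGFP-positive 24 h libraries. The 2-cell list moved in the same direction, from at most 25.9 CPM to at least 563 CPM in tbGFP-negative cells, and its part in the value was not tested. Of the words of Zfp560, 2.50% were shared. Its 250 bases before the RefSeq start (GRCm38.p6, chr9:20385159-20385408, minus strand) are printed as those of the member with the largest difference between the fractions; capitals mark the complement of the GC box GGGCGG, and none of the other motifs was found.
Zfp560: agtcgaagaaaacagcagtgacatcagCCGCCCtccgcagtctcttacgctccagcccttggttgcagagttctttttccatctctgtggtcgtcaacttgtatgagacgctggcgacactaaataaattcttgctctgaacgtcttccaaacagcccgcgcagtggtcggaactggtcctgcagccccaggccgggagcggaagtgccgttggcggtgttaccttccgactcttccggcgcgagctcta

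Of its neighbours, Zfp26, Zfp266, Zfp426 and Zfp846 passed in none of the comparisons of fractions. Zfp51 (chr17:21450374-21465587, plus strand, mm10), a KRAB member with 19 finger patterns and 1 annotated transcript, had 46.7 and 52.5 CPM in tbGFP-negative and 513 and 574 CPM in tbGFP-positive cells at 0 h. The values were 43.6 and 23.3 against 150 and 202 CPM at 6 h and 111 and 82.3 against 756 and 695 CPM at 24 h. The log2 differences were 3.45 ± 0.27, 2.39 ± 0.26 and 2.91 ± 0.26 (adjusted p = 1.51e-07, 9.24e-06 and 9.05e-07), and the fractions did not overlap at any time. It fell from 0 to 6 h in tbGFP-positive cells (−1.62 ± 0.25, adjusted p = 0.00281) and rose from 6 to 24 h in both fractions (1.53 and 2.04).

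Zfp296, a zinc finger protein of stem cells that works with KLF4 in reprogramming, showed its widest gap at 6 h. It had 112 and 85.1 CPM in tbGFP-negative and 246 and 122 CPM in tbGFP-positive cells at 0 h, 66.6 and 77.8 against 378 and 416 CPM at 6 h, and 49.5 and 63.1 against 158 and 118 CPM at 24 h. The log2 difference was 2.46 ± 0.29 at 6 h (adjusted p = 2.14e-05), 1.30 ± 0.28 at 24 h (adjusted p = 0.00848) and 0.91 ± 0.28 at 0 h (adjusted p = 0.069). In tbGFP-positive cells the 6 h values lay above those of both other times. The rise to 6 h (1.11 ± 0.28, adjusted p = 0.0320) was lost in 10 alternatives, among them leaving out tbGFP-positive 0 h replicate 2, either tbGFP-positive 24 h library or any 1 tbGFP-negative library, and the fall to 24 h (−1.52 ± 0.28, adjusted p = 0.00576) was lost without tbGFP-positive 24 h replicate 2. Scaling by totals and leaving out tbGFP-negative or tbGFP-positive replicate 1 at 24 h each ended the call of the difference at that time. Zfp599 passed as higher in tbGFP-positive cells at all 3 times (log2 differences of 0.86, 1.24 and 0.86). At 0 h it had 139 and 140 against 249 and 258 CPM, a call lost without tbGFP-negative replicate 2 and under both other scalings. The call at 6 h held under each alternative, and that at 24 h was lost with library totals and without either tbGFP-negative 24 h library or tbGFP-positive 24 h replicate 2.

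**Figure D5:**
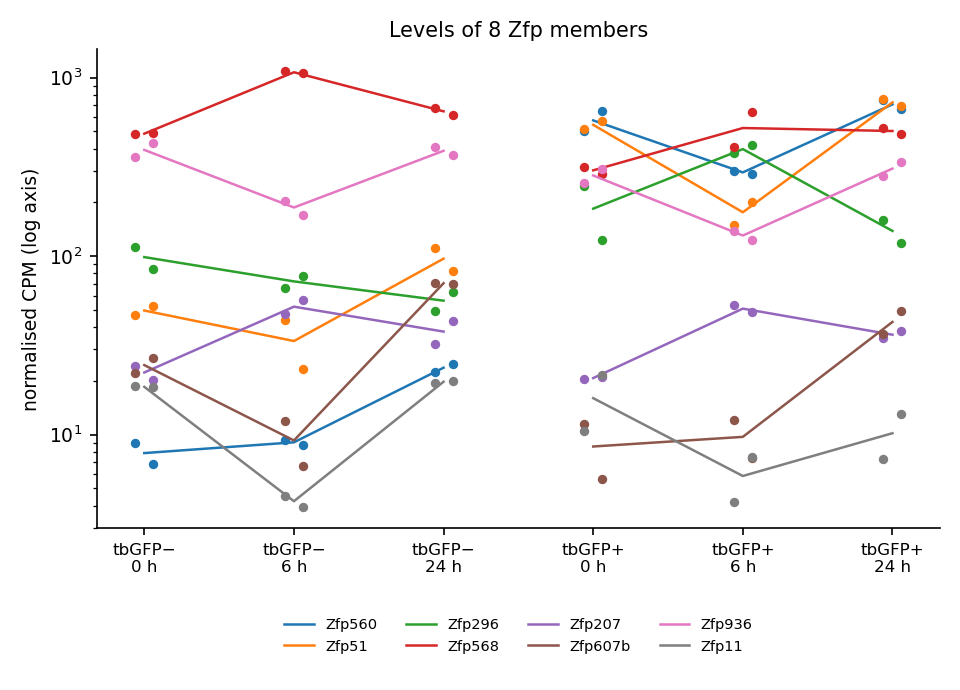
Normalised CPM on a log axis of 8 members by fraction and time; points are libraries and lines join means of 2 libraries. Zfp560 and Zfp51 are higher in every tbGFP-positive library than in any tbGFP-negative one, Zfp936 and Zfp11 are lowest at 6 h in tbGFP-negative cells, and Zfp207 is highest there.

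The other members higher in tbGFP-positive cells at 0 h were Zfp334 and Zfp809. Zfp334 had a log2 difference of 0.87 (adjusted p = 0.0312), a call lost in 13 alternatives, over which the difference ranged from 0.42 to 0.97. Zfp809, which binds the primer binding site of retroviruses and silences them, had 59.7 and 59.7 CPM in tbGFP-negative and 97.7 and 112 CPM in tbGFP-positive cells (log2 difference 0.81 ± 0.21, adjusted p = 0.0272), a call lost in 11 alternatives, among them both other scalings and each fit without 1 of the tbGFP-negative 0 h libraries, tbGFP-positive 0 h replicate 2 or 1 of the 24 h libraries. At 6 h it had 58.9 and 66.1 against 74.8 and 107 CPM and at 24 h 76.8 and 79.4 against 133 and 129 CPM, which did not pass (adjusted p = 0.105 and 0.0505). Lower at 0 h were Zfp607b, Zfp354c, Zfp568, Zfp462 and Zfp146. Zfp354c had 38.8 and 36.2 against 16.9 and 15.3 CPM (−1.22 ± 0.33, adjusted p = 0.0360). Each of the calls of Zfp354c, Zfp568 and Zfp462 was lost without any 1 of the 4 libraries compared. At 24 h the lower member was Zfp704, with 225 and 201 against 121 and 130 CPM (−0.76 ± 0.19, adjusted p = 0.0251), and Zfp948 was higher, with 20.8 and 24.0 against 40.3 and 49.3 CPM (1.00 ± 0.27, adjusted p = 0.0406). Neither call held when any 1 of the 4 libraries was left out.

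At 6 h, Zfp945 was higher in tbGFP-positive cells, with 22.0 and 24.7 CPM against 7.55 and 5.82 CPM (1.80 ± 0.41, adjusted p = 0.00898), a call lost without either tbGFP-negative 6 h library, with the 4 libraries compared alone, and with protein-coding transcripts alone, where its difference was 0.76. The largest fitted decreases were of Zfp90, Zfp598, Zfp532 and Zfp994. The 5th percentile of this log2 difference over all genes was −5.73. Zfp90 had 1.85 and 2.08 CPM in tbGFP-negative cells and no count in tbGFP-positive cells, at least 6.74-fold lower there. Zfp598 had 4.53 and 6.86 against 0.302 and 0 CPM, a ratio of 57.7 from 60 counts and 1 (exact 95% interval 9.97 to 2318). Zfp978, with 77.4% of its words shared, was also lower, with 548 and 326 against 124 and 184 CPM (−1.50 ± 0.25, adjusted p = 0.000681). Each of these genes had 6 h values in tbGFP-positive cells below those in tbGFP-negative cells. With the 4 libraries alone the calls of Zfp90, Zfp598, Zfp532, Zfp994 and Zfp978 were lost, and with protein-coding transcripts alone Zfp90 and Zfp598 had a log2 difference of 0 and the call of Zfp994 was lost. The calls of Zfp532, Zfp994 and Zfp90 were lost without either tbGFP-negative 6 h library. That of Zfp90 was also lost without tbGFP-positive 6 h replicate 2 or either tbGFP-negative 24 h library, that of Zfp994 without tbGFP-positive 24 h replicate 2, and that of Zfp532 without any 1 tbGFP-negative library of 0 or 24 h or tbGFP-positive library of 24 h.

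A panel of 36 Zfp genes with known roles was followed whether or not they changed, and 22 are members. The other 14 did not reach the count threshold. Zfp281, a pluripotency factor with 2 annotated transcripts, was listed at 0 in all libraries. Absence of its RNA and loss of its reads in the counting cannot be told apart here. From 0 to 6 h, 2 of the 22 fell and 2 rose in tbGFP-negative cells, and 1 fell and 3 rose in tbGFP-positive cells. Over all genes 1.21% fell and 3.22% rose in the former and 3.76% and 2.14% in the latter. From 6 to 24 h, 0 rose and 1 fell in tbGFP-negative cells and 3 rose and 2 fell in tbGFP-positive cells, where 3.62% and 5.91% of all genes rose and 4.3% and 2.9% fell. Of the same 22, tbGFP-positive cells had 1 higher and 2 lower at 0 h, 1 higher and 3 lower at 6 h, and 1 higher at 24 h, where 6.66%, 6.92% and 5.35% of all genes were higher and 0.449%, 5.22% and 0.113% lower.

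Among the panel's regulators of transcription and chromatin, Zfp322a, a pluripotency factor, went from 92.6 and 128 CPM at 0 h to 81.5 and 61.8 CPM by 6 h in tbGFP-negative cells without passing the test. Zfp644, a partner of the methyltransferases G9a and GLP, rose from 10.6 and 12.1 CPM at 6 h to 24.8 and 30.6 CPM at 24 h in tbGFP-positive cells (1.29 ± 0.31, adjusted p = 0.0225). The call was lost without any 1 of the 24 h libraries, and with protein-coding transcripts alone its log2 change was −2.74. Zfp148 and Zfp410 passed in none of the 9 comparisons. Zfp445, which helps maintain imprints, had 135 to 271 CPM over the 12 libraries and also passed in none.

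Among those acting on RNA, Zfp638, a nuclear protein of splicing, rose from 5.13 and 15.7 CPM to 27.5 and 32.1 CPM between 6 and 24 h in tbGFP-positive cells (1.46 ± 0.42, adjusted p = 0.0444), a call lost without either tbGFP-positive 24 h library, 6 h replicate 1 or any 1 tbGFP-negative library. Zfp36l2, the CCCH relative of Zfp36l1, had 16.9 to 55.3 CPM and passed in no comparison. Zfp622 and Zfp326 passed in none either. Of the members that act in ubiquitin and SUMO pathways, Zfp91, a ubiquitin ligase, had 238 and 207 CPM in tbGFP-negative and 99.9 and 145 CPM in tbGFP-positive cells at 6 h (−0.86 ± 0.23, adjusted p = 0.0255), a call lost without either tbGFP-negative 6 h library or tbGFP-positive 6 h replicate 1. Zfp451, a SUMO ligase, passed in none. Zfp750, a regulator of epidermal differentiation, went from 5.97 and 7.497 CPM at 0 h to 83.9 and 106 CPM by 6 h in tbGFP-negative cells, which did not pass (log2 change 3.78 ± 1.05, adjusted p = 0.0717). Its tbGFP-positive 6 h libraries stood at 1.21 and 75.9 CPM, so the 2 libraries of that group disagreed; without the latter its log2 change from 0 to 6 h there was −2.41.

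The partners of KRAB proteins were followed as 21 genes of the silencing machinery, among them Trim28, Setdb1, Cbx1, Cbx3, Dnmt1, Uhrf1, Hdac1 and Chd4, and all were tested. In each comparison between groups 0 to 2 of them passed, 0% to 9.52%, where 0.552% to 12.1% of all genes did. From 6 to 24 h the share was 9.52% in both fractions, near the 7.91% and 8.82% of all genes. None passed from 0 to 6 h in tbGFP-negative cells, where their median log2 change was 0.15. From 0 to 6 h in tbGFP-positive cells 1 passed, Atf7ip, the cofactor of SETDB1, with 56.5 ± 0.509 CPM at 0 h and 109 ± 11.4 CPM at 6 h (SD, n = 2; log2 change 0.95 ± 0.21, adjusted p = 0.0191). Atf7ip then fell from 6 to 24 h in the same fraction (−0.72 ± 0.21, adjusted p = 0.0443). Cbx5, which encodes heterochromatin protein HP1 alpha, fell from 1357 ± 94.6 CPM at 0 h to 694 ± 21.7 CPM at 24 h in tbGFP-negative cells (−0.97 ± 0.18, adjusted p = 0.00480) and fell from 6 to 24 h in both fractions (−0.78 and −0.71). Smarcad1, a chromatin remodeller, rose from 6 to 24 h in tbGFP-negative cells (0.88 ± 0.23, adjusted p = 0.0258) and was then lower in tbGFP-positive cells (−0.87 ± 0.22, adjusted p = 0.0301).

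The members' medians were below 0 from 0 to 6 h and above 0 from 6 to 24 h in each bin used. Bins were of annotated transcripts, of C2H2 patterns (1 or more) and of mean level. The 7 members without a C2H2 pattern were outside the finger bins. Their medians were −0.02 and 0.21 from 0 to 6 h and 0.37 and −0.37 from 6 to 24 h in tbGFP-negative and tbGFP-positive cells. The 36 members with 1 annotated transcript had median log2 changes of −0.61 and −0.73 from 0 to 6 h and 0.90 and 0.81 from 6 to 24 h in tbGFP-negative and tbGFP-positive cells. The 97 members with under 1% of words shared had −0.63 and −0.41 and then 0.91 and 0.57, with 13 and 9 of them falling at 6 h. The 50 members with 20% or more shared had −0.36 and −0.69 and then 0.57 and 0.75. By number of C2H2 patterns, the median change at 6 h in tbGFP-negative cells was −0.39 for 1 to 5, −0.45 for 6 to 10, −0.47 for 11 to 15 and −0.80 for 16 or more. In tbGFP-positive cells these medians were −0.50, −0.68, −0.56 and −0.61, in another order. In 4 bins of the mean level, from low to high, the medians at 6 h were −0.42, −0.61, −0.66 and −0.45 in tbGFP-negative and −0.39, −0.73, −0.61 and −0.43 in tbGFP-positive cells.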

How the data were processed

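RNA of sorted cells was sequenced as stranded total RNA in 12 libraries, and the labels put 2 in each of 6 groups. The submitters' processing notes name FastQC, HISAT2, featureCounts and DESeq2 without versions, and the genome build mm10. The deposited values are raw read counts per transcript, per the file headers. How reads that fit several transcripts were treated is not given in the sources used here. Of 142446 transcripts, 141536 matched GENCODE M21 and were summed to 55266 genes, although the design had assumed counts per gene. The 910 unmatched transcripts held 0.0606% to 0.0903% of the counts and were left out.

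A minimum of 10 counts in any 2 libraries left 19384 genes, which were tested with edgeR 4.0.16 in R 4.3.3: TMM factors, 1 mean per group, robust quasi-likelihood tests, Benjamini-Hochberg adjustment and a threshold of 0.05. Errors given with log2 changes are standard errors of the fit. The common dispersion was 0.208. Alternatives were other scalings, no count filter, a replicate block, the compared libraries alone, protein-coding transcripts alone, DESeq2 1.42.0, and leaving out libraries. Intervals and floors cover counting error only. KRAB and finger patterns were searched in translated GENCODE coding sequences, where RefSeq proteins had been planned. Other steps used Python 3.11.15, pandas 2.3.3 and SciPy 1.17.1.

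The members and lists were chosen with earlier results of these data known. Genes named are up to 4 of the largest called changes in each direction per comparison, the panel of known roles, the 5 highest mean levels and members at the threshold. Zfp9, Zfp64, Zfp84, Zfp160, Zfp626, the members named for their chromosome cluster, those listed as falling in both fractions and Zfp599 after 0 h were chosen after their values were seen. The result of 1 gene of the silencing machinery is not reported here.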

Additional observations from a re-analysis of the deposited data

Results flagged for a closer look

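The difference of Zfp560 between tbGFP-positive and tbGFP-negative cells was smaller after 24 h of sorbitol than at 0 h, and the edgeR test of that change passed, with an interaction of −1.34 on the log2 scale (adjusted p = 0.0229). It was the 1 member for which the change between fractions passed at 24 h. The tbGFP-negative libraries went from 8.96 and 6.82 CPM to 22.4 and 24.99 CPM, and the tbGFP-positive ones from 504 and 646.4 CPM to 749 and 666 CPM. The adjusted p missed the threshold with upper-quartile factors and in 8 of the 12 fits that left out 1 library.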

How the results depend on the processing

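Counts of members passing are given in the order of comparisons. The share of all genes passing also changed with the alternative, so a larger count need not be particular to the members. With DESeq2, 9.23% and 6.92% of all genes passed between fractions at 0 and 24 h. From 0 to 6 h it was 7.31% in tbGFP-negative and 12.5% in tbGFP-positive cells. Between the fractions at 0 h the count was 10, and 21 with upper-quartile factors, 26 with library totals, 22 with the compared libraries alone, 29 without both tbGFP-positive 6 h libraries and 16 with DESeq2. At 6 h it was 28, and 47 with upper-quartile factors, 4 with the compared libraries alone and 18 with protein-coding transcripts. At 24 h it was 6, and 18 with totals, 23 with the compared libraries alone, 13 without both tbGFP-positive 6 h libraries and 10 with DESeq2. In tbGFP-negative cells from 0 to 6 h it was 37, and 66 with totals, 61 with no filter, 115 with the compared libraries alone, 83 without both tbGFP-positive 6 h libraries and 67 with DESeq2. From 0 to 24 h it was 10, and 63 and 22 in those last-named restricted fits (compared libraries alone, and without both tbGFP-positive 6 h libraries). From 6 to 24 h it was 58, and 89 with totals, 158 and 108 in the same fits. In tbGFP-positive cells from 0 to 6 h it was 35, and 59 with no filter, 3 with the compared libraries alone and 62 with DESeq2. From 0 to 24 h it was 1, and 3 with no filter, 2 with the compared libraries alone, 8 without both tbGFP-positive 6 h libraries, 2 with protein-coding transcripts and 5 with DESeq2. From 6 to 24 h it was 64, and 0 with the compared libraries alone, where 4 libraries set the spread. The interaction at 6 h gave 0, and 6 with no filter and 3 with DESeq2. That at 24 h gave 1, and 0 with upper-quartile factors, 3 with no filter, 2 with the compared libraries alone and 3 without both tbGFP-positive 6 h libraries. Apart from the number of libraries or genes that an alternative itself changes, the cause was not tested.

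Leaving out 1 library at a time, the counts ranged from 2 to 29, 8 to 71 and 2 to 13 between fractions at 0, 6 and 24 h. For tbGFP-negative cells they ranged from 1 to 79 (0 to 6 h), 1 to 25 (0 to 24 h) and 13 to 112 (6 to 24 h), and for tbGFP-positive cells from 15 to 98, 0 to 8 and 13 to 108. For the interactions they ranged from 0 to 45 at 6 h and 0 to 2 at 24 h. A group left with 1 library was assumed to vary like the others.

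With the replicate number as a block the counts were 7, 24 and 6 between fractions, 37, 8 and 52 in tbGFP-negative cells, 32, 1 and 53 in tbGFP-positive cells, and 0 and 1 for the interactions. Deviations of same-numbered libraries from their group means correlated at −0.04 to 0.03 across genes, so no pairing by number was seen. With 2 libraries per group this cannot exclude a shared culture or sort. Of the 63 results named for their size, 10 passed in each alternative. Without tbGFP-positive 6 h replicate 2, the changes in tbGFP-positive cells turned sign for Zfp451 (−0.88 from 0 to 6 h and 0.82 from 6 to 24 h, against 0.59 and −0.65 without replicate 1) and Zfp750 (−2.41 and 3.36, against 3.53 and −2.59), and with protein-coding transcripts that of Zfp644 from 6 to 24 h was −2.74. At 3 counts, 0.380 to 1.30 CPM, the depth limits members such as Zfp90 and Zfp426.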
